A study of Mus musculus with 6 samples.

Results

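The Notch pathway was followed in NMuMG cells through 10 genes chosen by symbol: the receptor genes Notch1, Notch2 and Notch3, the ligand genes Jag1, Jag2 and Dll1, the glycosyltransferase gene Lfng, and the target genes Hes1, Hey1 and Heyl. All 10 were measured, among 18193 genes. NMuMG cells are an established line of mouse mammary epithelium. One group was given 4 ng/ml of TGF-β, a cytokine that drives epithelial cells towards a mesenchymal state, for 11 days and then kept without it for 13 days (withdrawal). A second group was taken after 11 days at that dose, and the control group received vehicle, per the treatment protocol. Each group had 2 Affymetrix 3' arrays, all cells grew in medium with serum, antibiotics and insulin, and the labels name no allele or transgene. The labels do not say how long control cells were kept, and the effect of withdrawal cannot be told apart from that of the added time in culture.

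Notch receptors sit in the membrane and are activated by ligands of the Jagged and Delta families on neighbouring cells. Ligand binding lets an ADAM protease and then γ-secretase cut the receptor, and the freed intracellular part enters the nucleus, joins the DNA-binding protein RBPJ and a Mastermind coactivator, and switches on target genes, of which the Hes and Hey repressors are the best known. In the mammary gland the pathway is known for its part in luminal cell fate.

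Because receptor and ligand genes carried the largest differences, the start-site windows of Notch1, Notch3 and Jag1 are shown. That of Lfng is added, the only available member window that held the full RBPJ motif. The sequences are those of RefSeq on GRCm38.p6, from 250 bases before to 50 bases after the annotated start, 5' to 3' along the gene. Capitals mark each match, on either strand, of the RBPJ core TGGGAA, its longer form GTGGGAA, or the N box CACNAG, a site that Hes repressors can bind.
Notch1 (chr2:26503773-26504072, minus strand): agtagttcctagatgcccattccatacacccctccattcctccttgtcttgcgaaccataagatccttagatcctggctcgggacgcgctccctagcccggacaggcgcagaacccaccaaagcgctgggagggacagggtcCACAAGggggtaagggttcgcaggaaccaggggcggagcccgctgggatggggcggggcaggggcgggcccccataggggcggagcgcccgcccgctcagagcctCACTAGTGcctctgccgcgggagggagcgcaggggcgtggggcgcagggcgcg
Notch3 (chr17:32166841-32167140, minus strand): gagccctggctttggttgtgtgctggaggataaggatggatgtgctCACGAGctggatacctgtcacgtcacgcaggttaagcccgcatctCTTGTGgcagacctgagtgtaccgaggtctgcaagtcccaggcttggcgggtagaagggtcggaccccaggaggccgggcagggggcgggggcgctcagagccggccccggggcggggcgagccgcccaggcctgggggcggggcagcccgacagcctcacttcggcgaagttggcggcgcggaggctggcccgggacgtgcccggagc
Jag1 (chr2:137116471-137116770, minus strand): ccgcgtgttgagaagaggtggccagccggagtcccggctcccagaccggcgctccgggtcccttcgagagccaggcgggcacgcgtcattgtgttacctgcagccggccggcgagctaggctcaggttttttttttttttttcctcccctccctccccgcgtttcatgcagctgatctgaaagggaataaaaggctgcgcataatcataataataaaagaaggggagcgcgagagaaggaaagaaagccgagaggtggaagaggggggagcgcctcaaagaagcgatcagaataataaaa
Lfng (chr5:140607091-140607390, plus strand): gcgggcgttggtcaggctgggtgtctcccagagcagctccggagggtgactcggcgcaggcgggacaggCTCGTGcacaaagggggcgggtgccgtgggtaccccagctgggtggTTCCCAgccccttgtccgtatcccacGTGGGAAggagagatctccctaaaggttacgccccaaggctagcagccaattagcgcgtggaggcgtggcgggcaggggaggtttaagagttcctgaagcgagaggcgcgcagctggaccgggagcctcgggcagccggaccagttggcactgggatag
RefSeq windows were matched for 7 of the 10 members. The target genes Hes1, Hey1 and Heyl had no window in the set used, so their start sites were not searched for these motifs. The Notch1 window held N boxes starting at -108, -3 and -1 from the start site, the last of them overlapping the one before it on the opposite strand, and the Notch3 window held them at -204 and -159. The Lfng window held GTGGGAA at -109, with the core inside it at -108, another core on the opposite strand at -135, and an N box at -181. None of these letters was in the Jag1 window. Of 32851 windows of this length, 6.38% held GTGGGAA, 25.6% TGGGAA and 42.5% CACNAG.

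The medians of the 6 arrays ranged from 5.77 to 5.79 (log2), and Pearson's r between arrays was 0.998 within groups and 0.970 to 0.978 between them. A second label field names a mesenchymal-to-epithelial transition for the TGF-β arrays and the reverse transition for the withdrawal arrays, and the groups here follow the titles and treatment entries. The smooth muscle gene Tagln, which TGF-β induces in many cells, stood at 6.97 and 6.82 on the withdrawal arrays, 12.69 and 12.61 on the TGF-β arrays and 6.89 and 6.92 on the control arrays. The E-cadherin gene Cdh1 stood at 11.80 and 11.79 on the withdrawal arrays, 8.37 and 8.25 on the TGF-β arrays and 11.99 and 11.89 on the control arrays. Of the 5 measured TGF-β response genes, Tagln, Acta2, Cnn1 and Myl9 were highest on the TGF-β arrays, while the fibronectin gene Fn1 was highest after withdrawal, at 14.16 and 14.13 on the withdrawal arrays, 13.69 and 13.69 on the TGF-β arrays and 12.03 and 12.04 on the control arrays. Of the epithelial genes, Ocln followed Cdh1, and the keratin genes Krt8 and Krt18 stayed lower than in control after withdrawal, at -0.94 and -0.53 (limma, adjusted p = 3.06e-05 and 2.88e-04), as under TGF-β, at -0.73 and -0.53. Krt8 and Krt18 were brighter than 99.7% and 99.8% of genes, while the epithelial genes Epcam and Cldn3 were brighter than 52.1% and 54.8%. Epcam, on a probe set whose name suffix x marks probes that other transcripts may share, went the other way from Cdh1. It was at -0.27 after withdrawal against TGF-β (limma, adjusted p = 0.0301) and at 0.19 under TGF-β against control, not passed (adjusted p = 0.103). Cldn3 was at 0.0030 and -0.059 in those comparisons, and neither passed (adjusted p = 0.985 and 0.711). The linear values of 8 endothelial markers summed to 299 and 301 on the withdrawal arrays, 308 and 333 on the TGF-β arrays and 311 and 309.7 on the control arrays. Those of 8 macrophage and leukocyte markers summed to 3290.5 and 3409.7 on the withdrawal arrays, 1234 and 1199 on the TGF-β arrays and 2803 and 2834 on the control arrays. Cd14 carried most of that sum, and the defining leukocyte genes Ptprc and Itgam were brighter than 8.71% and 6.30% of genes. Laptm5, Csf1r and Cd68 were brighter than 54.7%, 48.0% and 38.6%. Cd68 was higher after withdrawal, by 1.05 against TGF-β and 0.88 against control (limma, adjusted p = 0.00167 and 0.00333). Laptm5 and Csf1r did not pass in any comparison, and Tyrobp was lower after withdrawal than in control, at -0.41 (limma, adjusted p = 0.0119). The part of these marker values in the results was not tested, and in bulk RNA fewer cells of a type and less RNA per cell cannot be told apart. Scaling to spiked poly-A and hybridization controls set the median of all genes to -0.30 and -0.17 for TGF-β against control (as deposited, -0.011), to 0.12 and -0.25 for withdrawal against TGF-β (as deposited, -0.033), and to -0.18 and -0.42 for withdrawal against control (as deposited, -0.042). The spiked controls also differed between arrays of 1 group. Poly-A controls averaged 8.68 and 8.38 on the control arrays, and hybridization controls 11.35 and 11.17 on the withdrawal arrays. Each scaling shifted all genes of an array by 1 shared amount, so any error in it is common to all genes. The tests do not allow for such a shared error, and calls under these scalings are given as a description. Whether either scaling follows the amount of RNA was not tested. All changes below are therefore relative to the arrays' common level.

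All 3 receptor genes were higher after withdrawal than in either other group. Notch1, the most studied receptor, stood at 10.70 and 10.70 on the withdrawal arrays, 7.33 and 7.54 on the TGF-β arrays and 8.76 and 8.72 on the control arrays (log2). The 3 groups did not overlap, with withdrawal highest and TGF-β lowest. Under TGF-β Notch1 was at -1.31 ± 0.079 relative to control on the log2 scale (SE, n = 2 arrays each), which is 2.48-fold lower (limma, adjusted p = 9.10e-05). After withdrawal it was 3.27 ± 0.079 above its level under TGF-β, or 9.63-fold (limma, adjusted p = 3.82e-06). It was 1.96 ± 0.079 above control, or 3.88-fold (limma, adjusted p = 1.33e-05), so the withdrawal level lay beyond the control level. The other Notch1 probe set gave smaller differences, 1.41 for withdrawal against TGF-β, 1.04 for withdrawal against control and -0.37 for TGF-β against control, the last of which did not pass.

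Notch3, a receptor known for its role in vascular smooth muscle, stood at 7.18 and 7.19 on the withdrawal arrays, 5.42 and 5.25 on the TGF-β arrays and 5.35 and 5.31 on the control arrays. The withdrawal arrays stood apart, and the TGF-β and control arrays overlapped. Withdrawal exceeded TGF-β by 1.85 ± 0.071 and control by 1.85 ± 0.071, a 3.60-fold and a 3.62-fold difference (limma, adjusted p = 1.36e-05 and 1.17e-05). That probe set has a name suffix that marks probes shared by several transcripts, and the other Notch3 set gave 0.46 against TGF-β, not passed (adjusted p = 0.0866), and 0.56 against control, passed (adjusted p = 0.0454). The difference of TGF-β from control was 0.0068, with a 95% interval of -0.17 to 0.18, and it turned negative with both spike scalings.

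For Notch2, a receptor closely related to Notch1, the values were 9.72 and 9.67 on the withdrawal arrays, 9.20 and 9.20 on the TGF-β arrays and 9.13 and 9.18 on the control arrays. Withdrawal was higher than both other groups, by 0.49 ± 0.052 against TGF-β and 0.54 ± 0.052 against control (limma, adjusted p = 5.48e-04 and 3.46e-04). TGF-β differed from control by 0.046 (95% interval -0.083 to 0.17), a difference that turned negative with both spike scalings. The rises of Notch2 lost their call with hybridization-control scaling, at 0.27 against TGF-β and 0.16 against control (adjusted p = 0.0694 and 0.258), with poly-A scaling against control, at 0.40 (adjusted p = 0.0654), and with probe sets averaged against TGF-β, at 0.14 (adjusted p = 0.276).

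**Figure D1:**
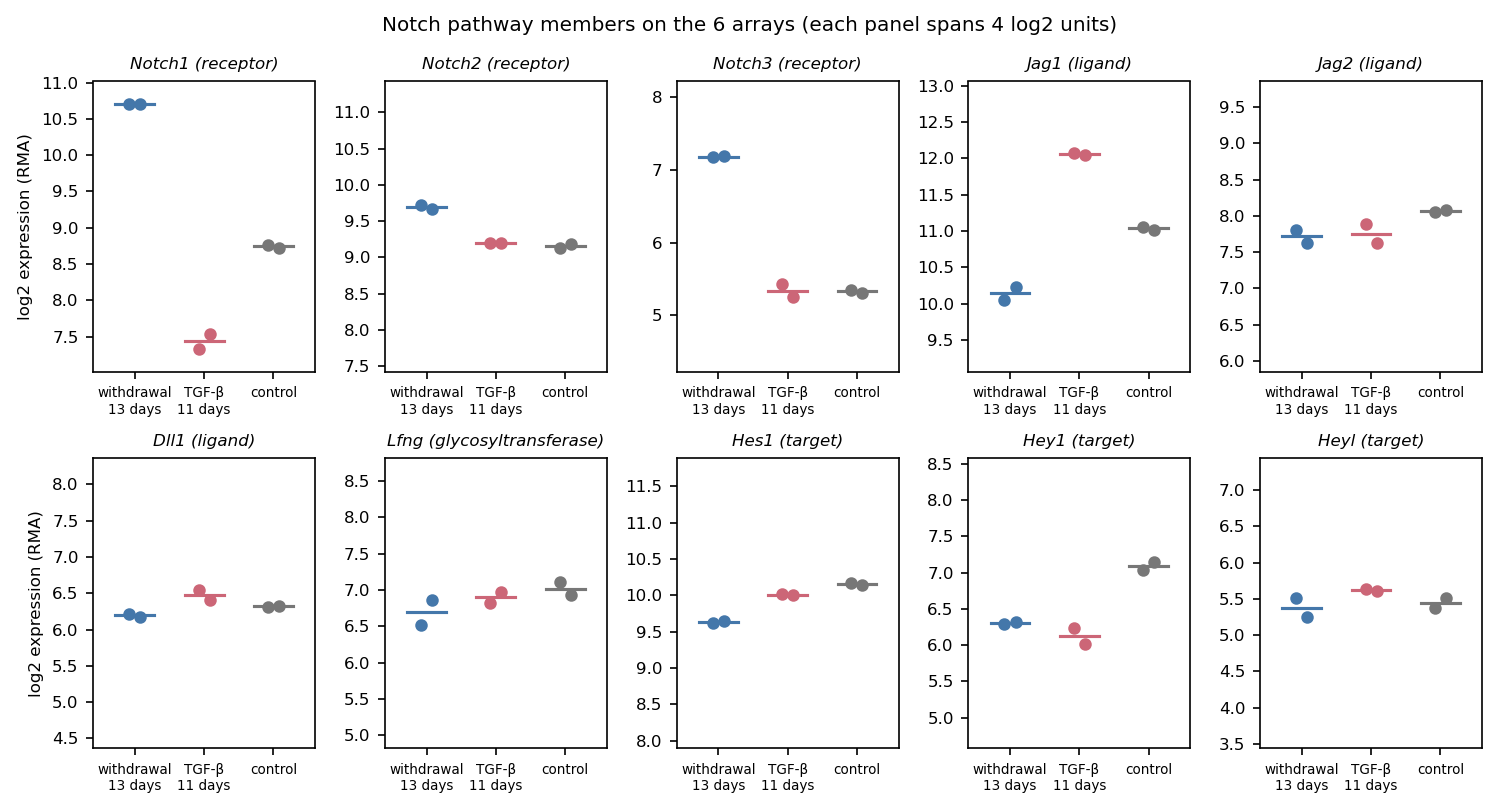
Log2 expression (RMA) of the 10 members on each of the 6 arrays, withdrawal 13 days in blue, TGF-β 11 days in red and control in grey, with points for arrays and lines for group means. Every panel spans 4 log2 units around its own gene, and levels are not comparable between panels. Notch1 lies between 7.33 and 10.70 and Jag1 between 10.05 and 12.07, with opposite orders of the groups.

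The ligand gene Jag1 ran in the opposite order to Notch1. It stood at 10.05 and 10.23 on the withdrawal arrays, 12.07 and 12.04 on the TGF-β arrays and 11.06 and 11.02 on the control arrays. The groups did not overlap, with TGF-β highest and withdrawal lowest. Jag1 was brighter than 94.8% of all genes over the 6 arrays. Under TGF-β it was 1.02 ± 0.072 above control, or 2.02-fold (limma, adjusted p = 1.72e-04). After withdrawal it was at -1.92 ± 0.072 relative to TGF-β, or 3.77-fold lower (limma, adjusted p = 1.29e-05), and at -0.90 ± 0.072 relative to control, or 1.86-fold lower (limma, adjusted p = 1.55e-04). As with Notch1, the withdrawal value lay past control, on the side away from the TGF-β value.

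Jag2, the second Jagged ligand gene, stood at 7.81 and 7.63 on the withdrawal arrays, 7.89 and 7.63 on the TGF-β arrays and 8.05 and 8.08 on the control arrays. Both treated groups lay below control and overlapped each other. Withdrawal was at -0.34 ± 0.10 relative to control and passed (limma, adjusted p = 0.0377), a call that was lost without the first control array, the second control array or the second withdrawal array (adjusted p = 0.114, 0.137 and 0.167). TGF-β was at -0.31 relative to control, which missed the threshold (limma, adjusted p = 0.0711) but passed under 7 alternatives, among them both spike scalings (adjusted p = 0.00338 with poly-A and 0.00254 with hybridization controls) and the dimmer Jag2 probe set, at -0.83 (adjusted p = 0.00248). Withdrawal and TGF-β differed by -0.037, with a 95% interval of -0.29 to 0.22, and the sign of that difference turned with poly-A scaling.

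The Delta ligand gene Dll1 was at 6.22 and 6.18 on the withdrawal arrays, 6.55 and 6.41 on the TGF-β arrays and 6.32 and 6.33 on the control arrays. The TGF-β arrays were the highest and the withdrawal arrays the lowest, without overlap. Withdrawal was at -0.28 ± 0.065 relative to TGF-β (limma, adjusted p = 0.0154), a call lost without the first TGF-β array, without the second withdrawal array and with poly-A scaling (adjusted p = 0.0680, 0.0706 and 0.673). Relative to control, Dll1 was at -0.12 after withdrawal (95% interval -0.29 to 0.036) and 0.16 under TGF-β (-0.0051 to 0.32), and neither passed. With hybridization-control scaling the withdrawal difference did pass, at -0.50, and the TGF-β one turned negative with both spike scalings.

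Lfng encodes lunatic fringe, which adds sugars to Notch receptors and so changes which ligands activate them. Its values were 6.52 and 6.86 on the withdrawal arrays, 6.82 and 6.98 on the TGF-β arrays and 7.11 and 6.93 on the control arrays. The withdrawal and TGF-β arrays overlapped, as did the TGF-β and control arrays. Lfng passed in 0 of the 3 comparisons by limma. Its difference for withdrawal against control was -0.33 (unadjusted p = 0.0442, adjusted p = 0.0881, 95% interval -0.65 to -0.012). That difference passed with the intensity trend (adjusted p = 0.0259) and with the dimmest 40% of genes left out (0.0457). It also passed with poly-A (0.0247) and hybridization-control scaling (5.70e-07), whose p-values do not allow for the shift shared by all genes. Without the second withdrawal array it was at -0.50. For withdrawal against TGF-β the difference was -0.21 (adjusted p = 0.249) and passed with hybridization-control scaling, at -0.43 (adjusted p = 0.00394).

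Of the targets, Hes1 and Hey1 were lower after withdrawal than in control, while the receptor genes were higher. Hes1, a repressor that is a direct Notch target in many cell types, stood at 9.62 and 9.65 on the withdrawal arrays, 10.02 and 10.00 on the TGF-β arrays and 10.16 and 10.15 on the control arrays. The groups did not overlap and withdrawal was lowest. Hes1 after withdrawal was at -0.38 ± 0.049 relative to TGF-β and -0.52 ± 0.049 relative to control (limma, adjusted p = 0.00125 and 2.91e-04), the first of which was lost with poly-A scaling (-0.23, adjusted p = 0.391). Under TGF-β it was at -0.14 relative to control, short of the threshold (limma, adjusted p = 0.0720), and passed with the intensity trend, with dim genes left out and with poly-A scaling (adjusted p = 0.00777, 0.0214 and 0.0398).

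Hey1, a related repressor and Notch target, was at 6.28 and 6.31 on the withdrawal arrays, 6.23 and 6.01 on the TGF-β arrays and 7.04 and 7.14 on the control arrays. Both treated groups lay below both control arrays. Hey1 under TGF-β was at -0.97 ± 0.086 relative to control, 1.96-fold lower (limma, adjusted p = 4.15e-04). After withdrawal it was at -0.79 ± 0.086 relative to control, 1.73-fold lower (limma, adjusted p = 5.62e-04). Withdrawal exceeded TGF-β by 0.18, which missed the threshold (limma, adjusted p = 0.152, 95% interval -0.033 to 0.39), passed at 0.29 with the first TGF-β array left out (adjusted p = 0.0393), and changed sign with hybridization-control scaling.

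Heyl, the third target gene, was the dimmest member, brighter than 31.2% of all genes. It was at 5.51 and 5.25 on the withdrawal arrays, 5.64 and 5.61 on the TGF-β arrays and 5.38 and 5.52 on the control arrays. The withdrawal and control arrays overlapped, and the TGF-β arrays were the highest. Heyl passed in 0 comparisons by limma, with an unadjusted p of 0.0475 for withdrawal against TGF-β (-0.25, adjusted p = 0.0953). That difference passed without the first withdrawal array and with hybridization-control scaling (adjusted p = 0.0223 and 0.00164). For withdrawal against control the difference was -0.072 (adjusted p = 0.605) and passed with hybridization-control scaling, at -0.45 (adjusted p = 0.00149).

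**Figure D2:**
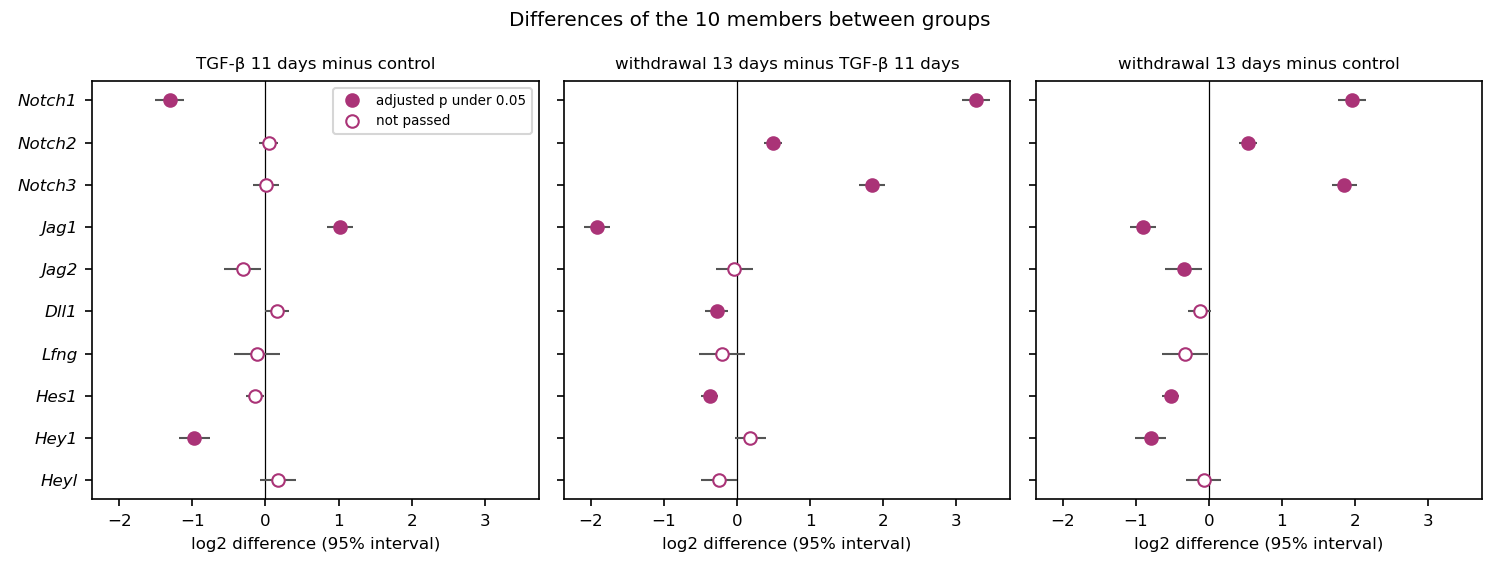
Log2 differences of the 10 members in the 3 comparisons, with 95% intervals from limma and filled points for an adjusted p under 0.05. Notch1 is at -1.31, 3.27 and 1.96 from left to right, Jag1 at 1.02, -1.92 and -0.90, and Hey1 at -0.97, 0.18 and -0.79, where the middle Hey1 difference turned to -0.040 with hybridization-control scaling.

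Counted over the members, withdrawal against TGF-β gave 3 higher and 3 lower of 10, beside 43.9% of all genes (21.8% higher and 22.1% lower). Withdrawal against control gave 3 higher and 4 lower, beside 45.3% of all genes (21.7% higher and 23.6% lower). TGF-β against control gave 1 higher and 2 lower, beside 32.4% of all genes (15.0% higher and 17.5% lower), a share near that background. The median log2 difference of the members was -0.12, -0.23 and -0.056 in that order, against -0.033, -0.042 and -0.011 over all genes. The higher and lower calls over all genes depended on the scaling. Withdrawal against TGF-β gave 3960 and 4023, with 3506 and 1500 under poly-A and 2146 and 7772 under hybridization-control scaling. Withdrawal against control gave 3943 and 4292, with 1967 and 3730 and 1655 and 12634, and TGF-β against control gave 2726 and 3175, with 818 and 5334 and 1319 and 4408.

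The other probe sets, which 7 of the members have, gave a second reading. Both Notch1 probe sets were higher after withdrawal. The dimmer one was at 1.41 ± 0.12 against TGF-β and 1.04 ± 0.12 against control (limma over all probe sets, adjusted p = 2.41e-04 and 7.99e-04), smaller than the 3.27 and 1.96 of the brighter one. For TGF-β against control the adjusted p of the dimmer set was 0.0749. The 3 Jag1 sets were all higher under TGF-β than in control, at 1.02, 1.22 and 0.89, and all lower after withdrawal than under TGF-β, at -1.92, -1.97 and -1.16. For withdrawal against control the last of these Jag1 sets, at -0.26, did not pass (adjusted p = 0.126). The other Notch2 set was at -0.22 after withdrawal against TGF-β and 0.025 against control, neither passed (adjusted p = 0.316 and 0.915).

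**Figure D3:**
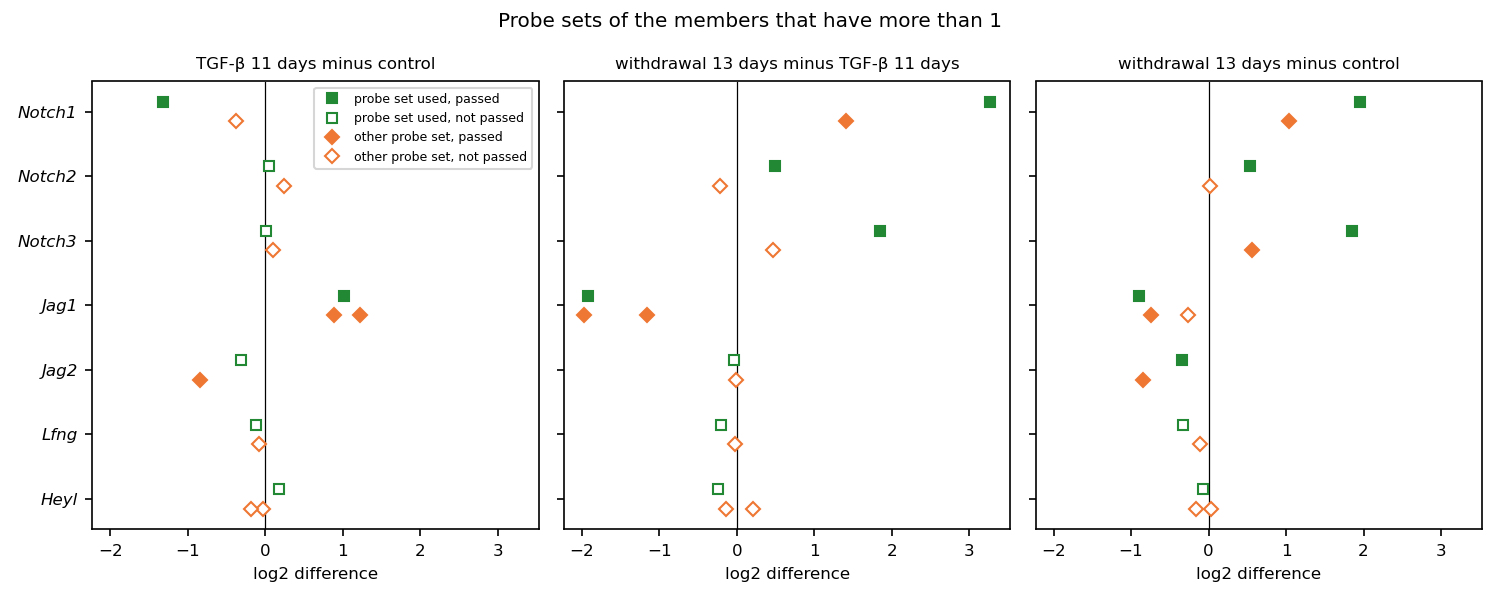
Log2 differences of every probe set of the 7 members that have more than 1, squares for the set used and diamonds for the others, filled where the adjusted p was under 0.05. The Jag1 sets lie on the same side of 0 in each panel, the Notch1 sets differ in size (3.27 and 1.41 for withdrawal against TGF-β), and the Notch2 sets lie on opposite sides of 0 there (0.49 and -0.22).

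The steps between receptor and target were read from lists of other pathway genes. Beside the list counts, 43.9% of all genes were called for withdrawal against TGF-β and 45.3% for withdrawal against control. For TGF-β against control that share was 32.4%. Of 7 measured receptor cleavage genes, 5 were higher after withdrawal than under TGF-β and 0 lower, and both spike scalings gave the same count. That list leaves out the protease gene Furin, which was counted with the ligand activation and receptor glycosylation genes. Furin was lower after withdrawal, at -0.49 against TGF-β and -0.67 against control (limma, adjusted p = 4.46e-04 and 1.08e-04). The γ-secretase subunit genes Psenen and Aph1a were higher by 0.56 ± 0.053 and 0.53 ± 0.051, and the ADAM protease gene Adam17 by 0.55 ± 0.056 (limma, adjusted p = 3.34e-04, 3.51e-04 and 4.40e-04). The Aph1a value rests on a set with the shared-probe suffix, and with such sets left out it was 0.22 (adjusted p = 0.0395). Psen2, a catalytic subunit gene, was higher by 0.58, but at -0.14 with those sets left out (adjusted p = 0.370). Adam10, the protease gene mainly linked to ligand-driven cleavage, was at 0.051 (adjusted p = 0.501). The list's median difference was 0.53, against -0.033 over all genes. Against control, 5 of the 7 were also higher after withdrawal, with the nicastrin gene Ncstn at 0.66 ± 0.063 (limma, adjusted p = 3.09e-04), or 0.21 with probe sets averaged. The higher and lower counts against control became 2 and 0 with poly-A scaling and 1 and 2 with hybridization-control scaling. Under TGF-β 0 genes were higher than in control and 2 were lower, Psenen at -0.20 and Psen2 at -0.59. Psenen lost that call without either control array or either TGF-β array (adjusted p from 0.0988 to 0.151) and with the replicate block, which left the count at 0 and 1 in each of these, and Psen2 was at 0.030 with shared sets left out.

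Nuclear complex and corepressor genes were the largest list, with 16 measured, of which 11 were higher and 3 lower after withdrawal than under TGF-β. The Groucho-family corepressor genes Tle2 and Tle3, whose proteins work with Hes repressors, were higher by 1.28 ± 0.083 and 1.05 ± 0.047. The Tle2 probe set has the suffix a, and Tle2 had no value with x, s and a sets left out. The acetyltransferase gene Kat2b was higher by 1.13 ± 0.050, and the corepressor gene Ctbp2 was lower, at -0.81 ± 0.069 (limma, adjusted p from 2.05e-05 to 2.27e-04 for the 4 genes). The related genes did not all move together. Tle1 was higher by 0.70 (limma, adjusted p = 0.00207). Tle4 and the acetyltransferase gene Kat2a were lower, at -0.26 and -0.69 (limma, adjusted p = 0.0257 and 1.08e-04). Rbpj, the DNA-binding partner of Notch receptors, was higher by 0.34 (limma, adjusted p = 0.00210). Hybridization-control scaling turned the split to 5 and 4. Against control the withdrawal split was 8 and 4, with Tle2 at 1.66 and Tle4 at -0.99, and hybridization-control scaling turned it to 4 and 7. The TGF-β split against control was 2 and 6, with Tle4 at -0.73 and Tle3 at -0.51, and became 0 and 11 with poly-A scaling, 0 and 5 without the first control array, and 1 and 4 without either TGF-β array. The median differences of the list were 0.40, 0.16 and -0.15 for withdrawal against TGF-β, withdrawal against control and TGF-β against control. Over all genes they were -0.033, -0.042 and -0.011, and 43.9%, 45.3% and 32.4% of all genes were called.

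Neurl1b, from the list of ligand activation and receptor glycosylation genes, encodes an E3 ubiquitin ligase of the Neuralized family, which acts on Notch ligands. It stood at 8.44 and 8.39 on the withdrawal arrays, 5.93 and 6.09 on the TGF-β arrays and 8.24 and 8.19 on the control arrays. The TGF-β arrays were lowest by far. Neurl1b was at -2.21 ± 0.068 under TGF-β against control and at 2.41 ± 0.068 after withdrawal against TGF-β (limma, adjusted p = 8.29e-06 and 6.36e-06), and withdrawal differed from control by 0.20 (adjusted p = 0.0595). Poglut1, which adds O-glucose to Notch receptors, was higher than in control in both treated groups, by 1.12 after withdrawal and 0.85 under TGF-β (limma, adjusted p = 2.05e-05 and 9.51e-05). Of the 11 genes, 5 and 1 were higher and lower after withdrawal relative to TGF-β. The split was 3 and 1 after withdrawal relative to control, and 2 and 3 under TGF-β relative to control. Of all genes, 43.9%, 45.3% and 32.4% were called in these comparisons. With hybridization-control scaling the list's withdrawal splits became 2 and 3, and 2 and 5. Without either TGF-β array, withdrawal against control gave 6 and 1, and without either control array TGF-β against control gave 2 and 1. The list's medians for withdrawal against TGF-β, withdrawal against control and TGF-β against control were 0.24, 0.20 and 0.015. Over all genes they were -0.033, -0.042 and -0.011.

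Of the 6 other Hes and Hey genes, Hes6 and Hey2 had the widest differences. Hes6, whose protein is known to oppose Hes1, stood at 10.12 and 10.09 on the withdrawal arrays, 9.01 and 8.98 on the TGF-β arrays and 9.16 and 9.09 on the control arrays. It was higher after withdrawal by 1.11 ± 0.052 against TGF-β and 0.98 ± 0.052 against control (limma, adjusted p = 2.43e-05 and 3.26e-05). Its probe set has the suffix x, and Hes6 had no value with x, s and a sets left out. Hey2 was at 3.90 and 4.46 on the withdrawal arrays, 5.04 and 4.76 on the TGF-β arrays and 4.06 and 3.93 on the control arrays, brighter than 14.8% of all genes. Its difference of 0.91 ± 0.19 under TGF-β against control passed (limma, adjusted p = 0.0143), but not with the first control, second control or first TGF-β array left out (adjusted p = 0.0532, 0.0801 and 0.0700). The list's higher and lower counts were 1 and 2 for withdrawal against TGF-β, 1 and 0 for withdrawal against control and 1 and 0 for TGF-β against control, and the withdrawal counts became 1 and 5, and 1 and 4, with hybridization-control scaling. Without the first TGF-β array the count for withdrawal against TGF-β was 1 and 0. The list's medians were -0.13, -0.11 and 0.020 in those comparisons, beside -0.033, -0.042 and -0.011 over all genes. Of all genes, 43.9%, 45.3% and 32.4% were called in them.

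Nrarp, a feedback inhibitor that Notch induces, was lower after withdrawal, at -0.31 ± 0.057 against TGF-β and -0.33 ± 0.057 against control (limma, adjusted p = 0.00591 and 0.00468), the first of which was lost with poly-A scaling (adjusted p = 0.583). It belongs to 7 other reported targets, whose higher and lower counts were 1 and 4 for withdrawal against TGF-β, 2 and 2 for withdrawal against control and 4 and 1 for TGF-β against control, the first of them 1 and 0 with poly-A scaling and 0 and 3 without the first TGF-β array or the second withdrawal array, and the last 2 and 1 without the second TGF-β array. The cell cycle gene Ccnd1 was lower than in control in both treated groups, at -0.75 after withdrawal and -0.52 under TGF-β, and the repressor gene Snai2 was higher in both, at 1.15 and 0.87 (limma, adjusted p from 7.49e-05 to 0.00115). These genes are known to answer to many pathways besides Notch. The medians of the 7 targets were -0.30, 0.031 and 0.40, beside -0.033, -0.042 and -0.011 over all genes. Of all genes, 43.9%, 45.3% and 32.4% were called in the same order of comparisons.

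Among 11 genes listed as negative regulators, the higher and lower counts were 4 and 1 for withdrawal against TGF-β. They were 3 and 0 for withdrawal against control and 4 and 1 for TGF-β against control. Of all genes, 43.9%, 45.3% and 32.4% were called in these comparisons. The 4 higher than under TGF-β were Nedd4, Dtx4, Lnx1 and Dtx3. How each listed gene acts on Notch in these cells was not tested, so the counts give no reading of Notch inhibition. Hybridization-control scaling turned the list counts to 1 and 4, 2 and 6, and 1 and 2, and poly-A scaling turned the last to 0 and 2. The count for TGF-β against control was 3 and 0 without the first control array, 2 and 0 without the second and 3 and 0 without the second TGF-β array. The list's medians were 0.075, 0.085 and 0.096, beside -0.033, -0.042 and -0.011 over all genes. The Deltex ubiquitin ligase gene Dtx4 was higher than in control by 1.11 ± 0.052 after withdrawal and 0.63 ± 0.052 under TGF-β (limma, adjusted p = 2.05e-05 and 3.01e-04), the second of which was lost with poly-A scaling (adjusted p = 0.102). Nedd4, another ubiquitin ligase gene, was higher than in control by 1.13 ± 0.11 after withdrawal (limma, adjusted p = 3.45e-04). Its probe set has the suffix a, and Nedd4 had no value with x, s and a sets left out. Numb, the best known Notch inhibitor, was at 0.085 after withdrawal and 0.0081 under TGF-β relative to control, and neither passed (adjusted p = 0.358 and 0.946). The remaining receptor and ligand genes, Notch4, Dll3 and Dll4, were brighter than 16.5%, 29.5% and 35.6% of all genes. Dll4 was lower after withdrawal, at -0.39 against TGF-β and -0.34 against control (limma, adjusted p = 0.00731 and 0.0133). The first of these calls was lost with poly-A scaling (adjusted p = 0.352) and the second without the second withdrawal array (adjusted p = 0.0642).

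**Figure D4:**
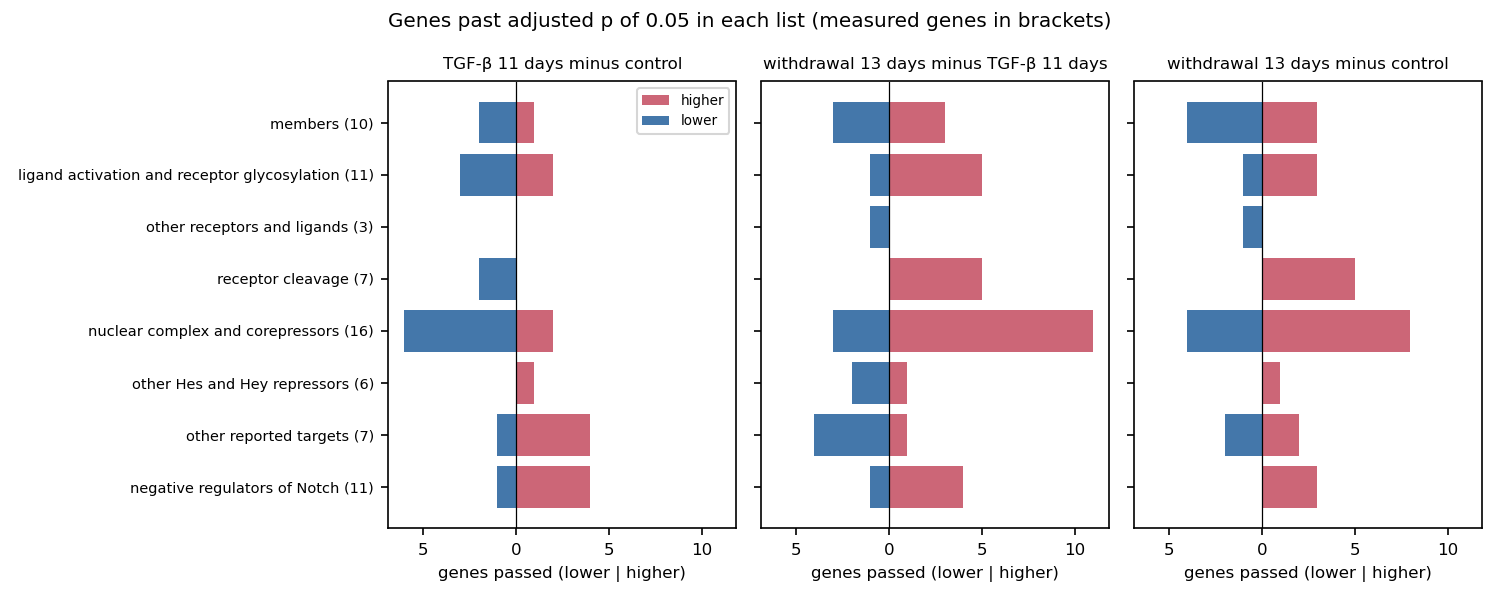
Number of genes with a limma adjusted p under 0.05 in the members and in 7 lists of other Notch pathway genes, higher to the right in red and lower to the left in blue, with the measured genes in brackets. After withdrawal, 5 of 7 receptor cleavage genes and 11 of 16 nuclear genes were higher than under TGF-β, beside 21.8% of all genes. With hybridization-control scaling 5 of each list were higher.

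Notch1 had the widest range of group means among the members, and 5 genes lay nearest to it by the distance between centred log2 values over the 6 arrays. They were Maf, a transcription factor gene, at a distance of 0.388, the sialyltransferase gene St3gal4 at 0.459, the neprilysin gene Mme at 0.472, the glutathione transferase gene Mgst1 at 0.490 and the ephrin receptor gene Epha7 at 0.490. Maf was at 10.08 and 10.05 on the withdrawal arrays, 6.51 and 6.48 on the TGF-β arrays and 7.80 and 7.83 on the control arrays. Over the 6 arrays, which fall into 3 groups, Pearson's r with Notch1 was 0.998 for Maf and lay between 0.990 and 0.999 for the 5 genes, given as a description.

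**Figure D5:**
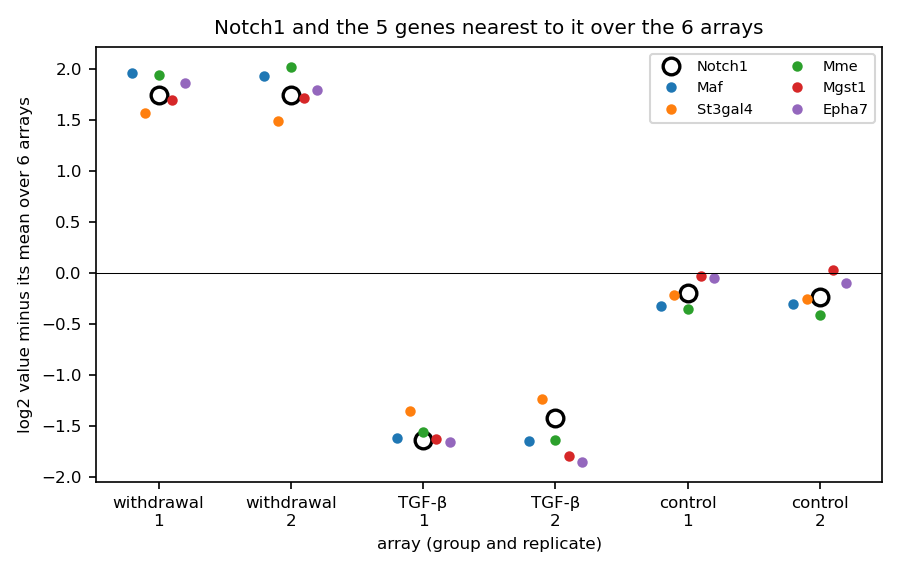
Log2 values of Notch1 (open circles) and its 5 nearest genes on each array, minus each gene's mean over the 6 arrays, so that levels cannot be compared. The genes are highest on the withdrawal arrays and lowest on the TGF-β arrays.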

How the data were processed

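RNA of 6 cell samples was measured on one-colour Affymetrix arrays. The deposited log2 values, 1 per probe set, came from RMA according to the submitters' processing notes, a method that corrects background, equalises the arrays' distributions and summarises probes. The software version is not given in the sources used here. RMA removes a shift shared by all genes, and there are no detection calls to mark values at background.

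Of 45101 probe sets, 64 controls were left out, and 34945 with 1 gene symbol in the platform annotation gave 18193 genes. A gene took its brightest probe set on average. limma 3.58.1 in R 4.3.3 fitted all 6 arrays by group (lmFit and eBayes, 3 residual and 2.86 prior degrees of freedom), with two-sided tests, Benjamini-Hochberg adjustment over all genes and a threshold of 0.05. Nothing in the labels shows that the arrays of a group are separate cultures, so p-values reflect how far these arrays spread, possibly for technical reasons alone, and the number of arrays limits precision. In simulated data of 18193 genes for TGF-β against control, 50 genes each were changed by 0.5, 1, -1 and -2. All other genes were left unchanged. Of the 50 in each set, 24, 42, 46 and 50 were called. In the deposited data 5901 genes were called in that comparison. The adjustment depends on how many genes change, so the simulated rates do not carry over to these data.

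The members and lists were chosen with earlier results of these data known. Named list genes come from the up to 4 called genes per list and comparison with the largest change. Rbpj, Numb, Adam10, Notch4 and Dll3 were named for their role after their values were seen. So were Tle1, Kat2a and, for withdrawal against TGF-β, Tle4, as relatives of named genes. The nearest genes leave out clone and predicted names. The pathway lists held 61 genes analysed here. Alternatives were a replicate block, an intensity trend, dropping the dimmest 40% of genes, averaged probe sets, dropping sets with the suffix x, s or a, fitting the compared groups alone, scaling to 24 poly-A or 18 hybridization control probe sets, and dropping each array. Added after seeing the data were the other probe sets of a member and these settings for the lists. Tables and figures used Python 3.11.15, pandas 2.3.3 and matplotlib 3.10.9.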

Additional observations from a re-analysis of the deposited data

How the results depend on the processing

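On the probe set used, Notch1 and Jag1 kept their direction and call in all 3 comparisons under every alternative run, as did Hey1 in both comparisons with control. Leaving out 1 array gave 5 to 7 members called for withdrawal against TGF-β, 6 to 7 for withdrawal against control and 3 to 4 for TGF-β against control, and 6715 to 7501, 6706 to 8073 and 4248 to 5781 of all genes. Members called under TGF-β numbered 5 in place of 3 with the intensity trend, with the dimmest 40% of genes left out (8 members measured) and with poly-A scaling. Over all genes, poly-A scaling gave 5006 calls in place of 7983 for withdrawal against TGF-β, and hybridization-control scaling 14289 in place of 8235 for withdrawal against control. With the replicate block, 6, 7 and 3 members and 7688, 7908 and 5519 genes were called. The block changed no call of a member, but Psenen under TGF-β and Snai2 for withdrawal against TGF-β lost theirs (adjusted p = 0.0558 and 0.0517). Replicate differences of the groups correlated at -0.016, 0.0067 and -0.0038. With 1 such difference per group, these values cannot decide whether arrays of the same number share a culture or day, and the labels do not say.

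These values changed sign, and the cause was not tested. For TGF-β against control, poly-A and hybridization-control scaling gave -0.13 and -0.0030 for Dll1, -0.24 and -0.11 for Notch2 and -0.28 and -0.15 for Notch3. Leaving out 1 array gave -0.081 to 0.094 for Notch3, negative without the second control array (-0.015) and the first TGF-β array. Heyl was at -0.11 with poly-A scaling, -0.013 with probe sets averaged and -0.031 and -0.18 in its other sets. For withdrawal against TGF-β, Jag2 was at 0.11 with poly-A scaling and -0.17 to 0.094 with 1 array left out, positive without the first TGF-β array and the second withdrawal array (0.050). Hey1 was at -0.040 with hybridization-control scaling, and other sets of Notch2 and Heyl at -0.22 and 0.21. For withdrawal against control, Heyl was at -0.20 to 0.058 with 1 array left out, positive without the second withdrawal array, and 0.031 in another set. Of the list genes, hybridization-control scaling gave -0.16 for Cdkn1a, -0.050 for Dtx3 and -0.012 for Psenen (withdrawal against control), poly-A scaling -0.018 for Fbxw7 (TGF-β against control), and leaving out x, s and a sets -0.14 for Psen2 and -0.055 for Snai2 (withdrawal against TGF-β) and 0.030 for Psen2 (TGF-β against control). None of these values with changed sign passed the limma test under its alternative. Nothing separates a low value, such as those of Heyl or Hey2, from background.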
